A study of Mus musculus with 2 samples.

Results

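The 10 circadian clock genes Per1, Per2, Per3, Arntl, Clock, Nr1d1, Nr1d2, Dbp, Tef and Ciart were followed among the 40879 gene symbols counted in mouse intestine. They were taken by symbol, and 9 of the 10 were listed under that symbol. Arntl was listed under its newer symbol Bmal1, a synonym given by RefSeq, and is called Bmal1 here. The comparison was between intestine of WT mice and of mice labelled ERAP1+/-, in which Cre recombinase was used to delete exons 6 and 7 of Erap1 from an allele derived from a single clone of embryonic stem cells. Erap1 encodes an aminopeptidase of the endoplasmic reticulum that trims peptides for presentation by MHC class I. All mice had a C57BL/6 background and were 8 weeks old when assigned to groups. They were described as germ-free, lived in a specific pathogen-free facility under a 12-hour light and 12-hour dark cycle, and control mice drank plain water for 28 days. RNA of 3 mice per genotype was pooled in equal amounts into 1 library each, so that the spread between mice was not measured and no difference has a replicate check. The Cre strain, the sex of the mice and the time of day at which the tissue was taken are not given in the sources used here.

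The mammalian clock is a transcriptional loop that runs in nearly every cell, including the epithelium and the muscle wall of the gut. The proteins BMAL1 and CLOCK bind E-boxes and activate Per, Cry, Nr1d1, Nr1d2, Dbp, Tef and Ciart, and the PER, CRY and CIART proteins in turn repress BMAL1 and CLOCK. NR1D1 and NR1D2, also called REV-ERBα and REV-ERBβ, repress Bmal1 through an element that ROR proteins activate, so that Bmal1 mRNA is high when Nr1d1 and Dbp mRNA are low. In the gut, clock genes follow the light cycle and feeding, and they are known for daily rhythms of absorption, cell division and defence against microbes.

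The elements of this loop can be read in the promoters of its genes, and 5 are shown because they stand for the E-box, D-box and REV-ERB arms described below. The sequences are from RefSeq on GRCm38.p6, on the strand of the gene, 5′ to 3′, with the matched letters in capitals. Those of Ciart (chr3:95882229-95882478, minus strand), Per1 (chr11:69098699-69098948, plus strand), Nr1d1 (chr11:98775378-98775627, minus strand) and Per3 (chr4:151044666-151044915, minus strand) are the 250 bases before a transcription start. That of Bmal1 (chr7:113207530-113207558, plus strand) is the REV-ERB and ROR site just after a start.
Ciart: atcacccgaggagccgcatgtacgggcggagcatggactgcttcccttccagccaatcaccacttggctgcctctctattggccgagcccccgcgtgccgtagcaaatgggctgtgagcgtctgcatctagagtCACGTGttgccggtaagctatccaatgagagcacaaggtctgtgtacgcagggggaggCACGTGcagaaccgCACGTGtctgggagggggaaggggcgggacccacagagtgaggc
Per1: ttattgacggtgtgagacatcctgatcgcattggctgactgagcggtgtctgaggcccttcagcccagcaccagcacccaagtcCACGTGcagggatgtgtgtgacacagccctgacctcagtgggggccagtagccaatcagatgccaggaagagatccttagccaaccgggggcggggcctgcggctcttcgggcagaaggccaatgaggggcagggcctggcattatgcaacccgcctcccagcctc
Nr1d1: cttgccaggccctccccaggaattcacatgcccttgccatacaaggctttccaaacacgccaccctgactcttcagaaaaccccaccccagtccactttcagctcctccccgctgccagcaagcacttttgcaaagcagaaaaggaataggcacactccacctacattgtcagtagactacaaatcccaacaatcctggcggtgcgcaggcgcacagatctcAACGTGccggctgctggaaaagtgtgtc
Per3: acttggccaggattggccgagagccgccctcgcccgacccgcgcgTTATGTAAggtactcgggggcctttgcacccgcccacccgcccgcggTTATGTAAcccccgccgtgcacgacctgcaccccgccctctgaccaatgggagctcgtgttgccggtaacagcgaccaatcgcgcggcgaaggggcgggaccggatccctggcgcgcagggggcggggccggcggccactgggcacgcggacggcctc
Bmal1: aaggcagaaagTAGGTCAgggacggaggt

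In a window from 250 bases before to 50 bases after each start, both strands were searched for CACGTG (E-box), CACGTT (E'-box), TTATGTAA and TTACGTAA (D-box), TAGGTCA and TGGGTCA (core of the REV-ERB and ROR element) and TGACGTCA (cAMP response element). No pair of these words is contained in another. Of the 10 genes, 9 had an entry in the promoter table, with 14 starts. Ciart held 3 E-boxes, which begin 116, 58 and 44 bases before its start, and an E-box was also found at a start of Per1 and at 2 starts of Tef. An E-box was present in 7.15% of all 32851 promoters. Per3 held 2 D-boxes, the element bound by DBP, TEF and HLF, and 1.06% of all promoters held such a word. Nr1d1 held an E'-box on the opposite strand, which 4.68% of all promoters hold. The REV-ERB and ROR core was found in Bmal1 alone among the 9 genes, 30 bases after a start, and in 6.45% of all promoters. The cAMP response element was in none of these 14 windows and in 1.79% of all. A match describes the letters only and is not a measurement of binding.

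Counted reads summed to 8114826 for WT and to 8907515 for the library labelled ERAP1+/-. Reads came from the 3′ ends of mRNA, and levels are CPM (reads of a gene per 1000000 reads) after TMM scaling, which centres a trimmed mean of the log ratios between libraries. Ratios are the level in the library labelled ERAP1+/- divided by that in WT, with an exact 95% interval that covers counting error only. Erap1 had 229 reads in WT and 2 in the library labelled ERAP1+/-, a ratio of 0.00730 (0.000878 to 0.0267), which is lower than the single intact copy named by the label would give. Cast, on the opposite strand, overlaps the 3′ end of Erap1 by 834 bp and had 1702 and 1381 reads. The 3′ end that was counted lies outside the deleted exons, so these reads do not check the deletion, and ERAP1+/- is used below as the name of a library. All 10 colon epithelium markers were present in both libraries, with a summed level of 9640 CPM in WT and 9910 CPM in ERAP1+/- (Lgals4 with most reads, 22956 and 27348). The sum joins 6 lower and 4 higher markers (5 and 5 with scaling by the total count), among them Krt20 at 0.433 (0.413 to 0.454), Car1 at 0.566 (0.552 to 0.581) and the goblet cell mucin Muc2 at 2.29 (2.24 to 2.34). Xist had 1635 and 6451 reads, and the Y-linked genes Ddx3y, Eif2s3y, Kdm5d and Uty were at ratios from 0.00753 to 0.0835, so that the pools also differed in sex-linked RNA. Genotype and sex-linked RNA cannot be told apart with 1 library each.

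The pools also differed in markers of tissues that run their own clocks. All 8 smooth muscle markers were lower in ERAP1+/-, with summed levels of 8840 CPM in WT and 4580 CPM in ERAP1+/-, a ratio of 0.518, and none was at 0. Acta2 had the most reads of the smooth muscle list in ERAP1+/- (18222 and 12927). All 14 epidermis markers were lower, with summed levels of 3060 and 39.5 CPM and 4 of them at 0 in ERAP1+/- (Flg, 7952 and 4 reads). All 14 skeletal muscle markers were lower, with 1240 and 24.6 CPM and 1 at 0 in ERAP1+/- (Ttn, 2154 and 26 reads). Of the 8 adipocyte markers, 6 were higher, with 106 and 195 CPM (Fabp4, 435 and 887 reads). Of the B and plasma cell markers, 7 of 8 had at least 10 reads and all 7 were higher, with 295 and 1770 CPM (Igha, 1670 and 13367 reads). The part of these tissues in the clock gene differences given below was not tested.

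None of the 10 clock genes differed by more than 2-fold on the scale of log2(CPM + 1), and the pattern was uneven. Bmal1, Tef, Per2, Per1 and Ciart were lower in the ERAP1+/- library by 1.63-fold to 2.05-fold, while Nr1d1 was 1.25 times as high as in WT. Dbp, Nr1d2 and Per3 had ratios whose intervals held 1. In bulk tissue, fewer cells of a type and less RNA per cell cannot be told apart. Genes are called tested here, although no test between single libraries can be run, where their log2(CPM + 1) was at least 4 (15 CPM) in either library, which 8013 genes and 8 of the 10 clock genes reached. Per3 and Ciart stayed under that level in both libraries. Of the 8013 genes, 428 (5.34%) passed 2-fold in either direction, 111 higher and 317 lower. With scaling by the total count the split was 166 higher and 248 lower. Past 1.5-fold and lower were 4 of the 8 clock genes (Bmal1, Tef, Per2 and Per1), against 10% of all tested genes. Per1 did not pass 1.5-fold with scaling by the total count (-0.55). Past 1.5-fold and higher was none of the 8, against 5.54%. The interval lay below 1 for 5 of the 8 (the same 4 and Clock), against 32.4% of tested genes, and above 1 for Nr1d1 alone, against 25.5%. The median difference on the log2(CPM + 1) scale was -0.50 over the 10 genes and 0.00 over the 16142 genes with at least 10 reads. Scaling by the total count moves the median of the tested genes by 0.12 on this scale, and the median of the 10 genes was then -0.38.

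**Figure D1:**
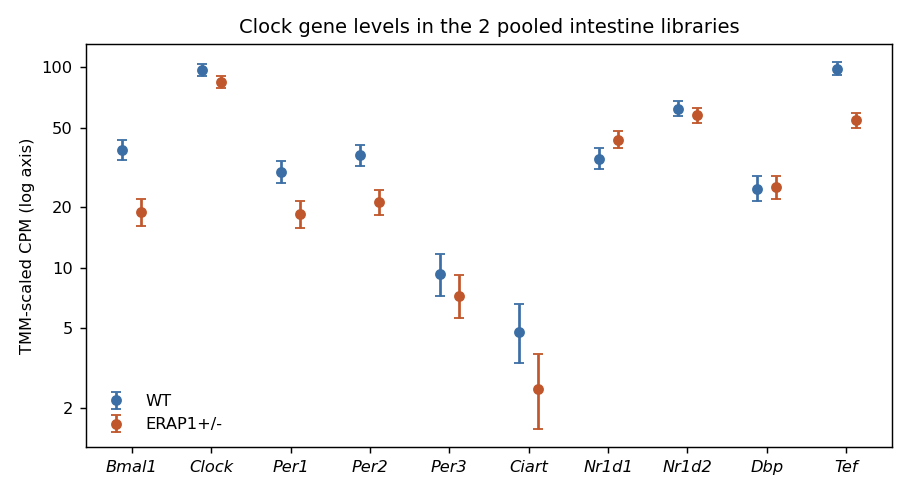
Level of each clock gene in the WT library (blue) and the ERAP1+/- library (orange), as TMM-scaled CPM on a log axis. Points are single pooled libraries and bars are exact 95% Poisson intervals of the read count; the bars of the 2 libraries are apart for Bmal1 (38.7 against 18.9 CPM), Per1, Per2 and Tef, barely apart for Nr1d1 (35.0 against 43.6 CPM), and overlap for Clock, Per3, Nr1d2, Dbp and Ciart.

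The activators of the loop were Bmal1 and Clock. Bmal1 (chromosome 7, 113207465 to 113314126, plus strand, GENCODE M21 on GRCm38) had 301 reads in WT and 176 in ERAP1+/-. Its level was 38.7 CPM (34.5 to 43.4) in WT and 18.9 CPM (16.2 to 21.9) in ERAP1+/-. The intervals were well apart, and the ratio was 0.488 (0.403 to 0.590), or 2.05-fold lower, the largest difference of the 10 genes. On the log2(CPM + 1) scale, where the added 1 shrinks a difference, this was -1.0, at the edge of the 2-fold limit and just inside it. Of the tested genes, 4.01% were as low or lower. Bmal1 passed the limit with a pseudocount of 0.1, with the ERAP1+/- library thinned to the size of WT, and with scaling that leaves out epidermis and skeletal muscle markers and mitochondrial and ribosomal RNA. Clock, its partner (chromosome 5, 76209868 to 76304792, minus strand), had 755 and 785 reads. The levels were 97.2 and 84.4 CPM and the ratio 0.868 (0.785 to 0.961), which with scaling by the total count was 0.947 (0.856 to 1.05). Both partners were thus lower with TMM, and Bmal1 reads per Clock read were fewer in ERAP1+/-: Clock to Bmal1 was 2.51 in WT and 4.46 in ERAP1+/-, a change of 1.78 (1.43 to 2.21) that does not depend on scaling. Npas2, which can stand in for Clock, had 91 and 52 reads and a ratio of 0.477 (0.333 to 0.678), close to that of Bmal1.

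The Period genes encode repressors that accumulate late in the activation phase. Per1 (chromosome 11, 69095217 to 69109960, plus strand), which also answers quickly to cAMP and glucocorticoids, had 234 reads in WT and 172 in ERAP1+/-. Its level was 30.1 CPM (26.4 to 34.2) and 18.5 CPM (15.8 to 21.5), a ratio of 0.614 (0.501 to 0.751). Per2 (chromosome 1, 91415982 to 91459324, minus strand) had 283 and 197 reads, with levels of 36.4 CPM (32.3 to 40.9) and 21.2 CPM (18.3 to 24.4). The Per2 ratio of 0.581 (0.482 to 0.7) was within the interval of Per1. Both genes stood lower in ERAP1+/- beyond counting error. Per3 (chromosome 4, 151003652 to 151044665, minus strand), the gene with 2 D-boxes, had 72 and 67 reads and a ratio of 0.777 (0.549 to 1.10). At this depth a Per3 difference of the size seen for Per1 or Per2 cannot be told from none.

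Ciart, also called Chrono, encodes a repressor of BMAL1 and had the fewest reads of the 10 genes. Ciart (chromosome 3, 95878503 to 95882251, minus strand) had 37 reads in WT and 23 in ERAP1+/-. The levels were 4.76 CPM (3.35 to 6.56) and 2.47 CPM (1.57 to 3.71), and the ratio was 0.519 (0.295 to 0.897). The upper bound was near 1 and was 0.979 with scaling by the total count. The cryptochromes, the main repressors of the loop together with PER proteins, were from the list of partners and were the lowest of the repressors. Cry2 had 224 and 91 reads and a ratio of 0.339 (0.263 to 0.435). Cry1 had 226 and 130 reads and a ratio of 0.480 (0.384 to 0.599). Both passed 2-fold on the log2(CPM + 1) scale with TMM (-1.47 and -1.01), and Cry1 was at -0.89 with scaling by the total count. The reads of Cry2 per read of Cry1 were 0.991 in WT and 0.70 in ERAP1+/-, a change of 0.706 (0.503 to 0.990).

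Nr1d1 was the single clock gene of the 10 with a higher level in ERAP1+/- whose interval excluded 1. Nr1d1 (chromosome 11, 98767932 to 98775333, minus strand) had 272 reads in WT and 406 in ERAP1+/-. The level was 35.0 CPM (31.0 to 39.4) in WT and 43.6 CPM (39.5 to 48.1) in ERAP1+/-. The ratio was 1.25 (1.07 to 1.46), and 1.36 (1.16 to 1.59) with scaling by the total count. This is a small difference, and 17.4% of the tested genes were as high or higher. An exon of Thra, the thyroid hormone receptor gene on the opposite strand, overlaps the last exon of Nr1d1 by 263 bp, beginning 225 bp from its 3′ end. The kit keeps the strand, but the strand setting of the counting is not stated. Thra had 1382 and 1371 reads, and its ratio was 0.829 (0.768 to 0.894), on the other side of 1 from Nr1d1. Nr1d2 (chromosome 14, 18204054 to 18239127, minus strand), the second REV-ERB, had 484 and 537 reads at levels of 62.3 and 57.7 CPM. Its ratio of 0.927 (0.818 to 1.05) was 1.01 (0.892 to 1.15) with scaling by the total count, so that no direction can be given. Within each library, Nr1d1 reads per Nr1d2 read were 0.562 in WT and 0.756 in ERAP1+/-, a change of 1.35 (1.10 to 1.65).

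Dbp and Tef encode PAR bZIP factors that bind D-boxes and carry the rhythm to output genes, and they differed from each other. Dbp (chromosome 7, 45705088 to 45710203, plus strand), a gene of very large daily amplitude in many tissues, had 193 reads in WT and 234 in ERAP1+/-. The levels were 24.8 CPM (21.5 to 28.6) and 25.2 CPM (22.0 to 28.6), and the ratio was 1.01 (0.833 to 1.23). A Dbp difference beyond these bounds in either direction was not seen. Sphk2, on the opposite strand, overlaps the 3′ end of Dbp by 539 bp and had 563 and 555 reads, so that the Dbp count could hold reads of Sphk2 if strand was not used. Tef (chromosome 15, 81802421 to 81826863, plus strand), which has E-boxes at both listed starts, had 765 and 507 reads. Its levels were 98.5 CPM (91.6 to 106) and 54.5 CPM (49.9 to 59.5), a ratio of 0.554 (0.494 to 0.620). Dbp reads per Tef read were 0.252 in WT and 0.462 in ERAP1+/-, a change of 1.83 (1.46 to 2.3) free of scaling. The relative Hlf, also a PAR bZIP gene, had 105 and 104 reads and lay between them at 0.827 (0.625 to 1.10).

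**Figure D2:**
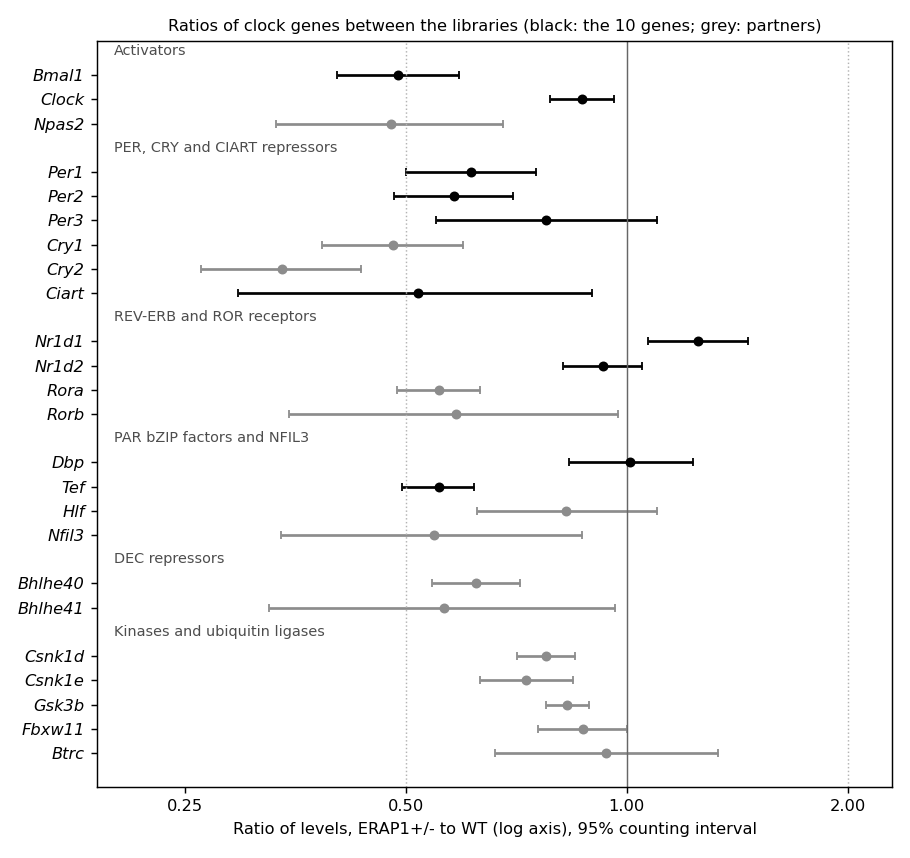
Ratio of the level in the ERAP1+/- library to that in the WT library for the 10 clock genes (black) and 14 partner genes (grey), grouped by role, on a log axis. Points are ratios from 1 library each, bars exact 95% counting intervals, and dotted lines mark 2-fold; Nr1d1 (1.25) stands to the right of 1, while Bmal1 (0.488), Npas2 (0.477), Cry1 (0.480) and Cry2 (0.339) are the lowest of the activators and repressors.

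The partners of the clock were mostly lower as well. Of 20 listed genes, 19 were matched by symbol, 18 had at least 10 reads, and 16 of these were lower and 2 higher, with a median log2(CPM + 1) difference of -0.53. With scaling by the total count, 15 were lower and 3 higher. Of the 10 partners that reached the level of 4, 3 passed 2-fold, all lower, with Cry1 and Cry2 among them, against 5.34% of all tested genes in either direction. Rora, which encodes a broadly expressed ROR receptor that activates Bmal1, had 593 and 394 reads and a ratio of 0.555 (0.487 to 0.631). Nfil3, which opposes DBP at D-boxes, had 49 and 32 reads and a ratio of 0.546 (0.338 to 0.869). Bhlhe40, an E-box repressor also called Dec1, had 485 and 362 reads and a ratio of 0.623 (0.543 to 0.716). Csnk1d and Csnk1e, the kinases of PER proteins, were at 0.776 (0.708 to 0.850) and 0.729 (0.630 to 0.844).

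Bmal1, Cry1, Npas2, Nfil3 and Clock are known targets of repression by REV-ERB proteins, a grouping made here with the values in view. In ERAP1+/-, 4 of these 5 genes had ratios from 0.477 to 0.546, and Clock was at 0.868. On the log2(CPM + 1) scale, 7.05% of the tested genes were as low as Nfil3, the highest of the 4. Low ratios were not particular to this grouping. Outside it, Cry2 was at 0.339, Tef at 0.554 and Rora at 0.555, while Nr1d2 was at 0.927 and Dbp at 1.01. A part of REV-ERB repression in these values was not tested. Setting Nr1d1 against the genes of the grouping within a library removes the scaling factor. Nr1d1 reads per Bmal1 read were 0.904 in WT and 2.31 in ERAP1+/-, a change of 2.55 (1.99 to 3.27). Against Cry1 the change was 2.59 (1.97 to 3.41), from 1.20 to 3.12. Against Npas2 it was 2.61 (1.77 to 3.88), and against Clock it was 1.44 (1.19 to 1.73). Genes that BMAL1 and CLOCK activate along with Nr1d1 were lower relative to it as well. Nr1d1 reads per Per2 read were 0.961 in WT and 2.06 in ERAP1+/-, a change of 2.14 (1.68 to 2.74), and per Tef read 0.356 and 0.801, a change of 2.25 (1.85 to 2.74). Against Dbp the change was 1.23 (0.956 to 1.58), an interval that holds 1. These ratios share the Nr1d1 count and are not independent of each other.

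**Figure D3:**
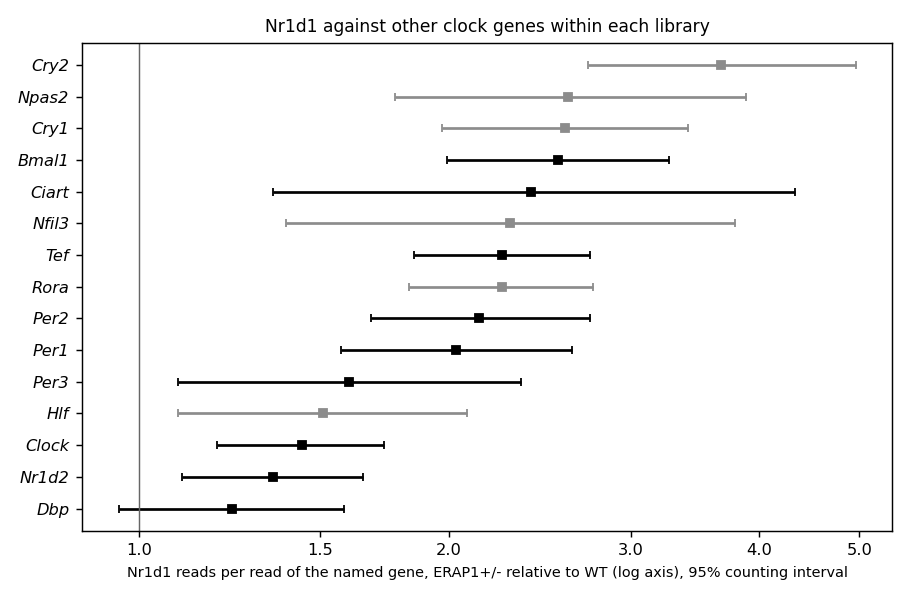
Nr1d1 reads per read of each named gene in the ERAP1+/- library relative to the same ratio in the WT library, on a log axis; black squares are genes of the 10, grey squares partners, and bars exact 95% counting intervals. The 15 values run from 1.23 for Dbp, whose interval holds 1, to 3.67 for Cry2. Nr1d1 had the highest ratio of the 10 genes (1.25) and every gene drawn had a lower one, so values above 1 follow from that choice. Among the genes not drawn is the partner Timeless, with a higher ratio of 1.37 (0.922 to 2.06). Every value carries the same Nr1d1 counts (272 and 406).

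Taken as sums, the arms of the loop had nearly the same ratio in both libraries. The 8 genes activated by BMAL1 and CLOCK (Per1, Per2, Per3, Nr1d1, Nr1d2, Dbp, Tef and Ciart) had 2340 reads in WT and 2143 in ERAP1+/-. Bmal1 and Clock together had 1056 and 961. The activated genes had 2.22 reads per activator read in WT and 2.23 in ERAP1+/-, a change of 1.01 (0.905 to 1.12). This sum joins unlike parts. With Bmal1 alone as the denominator the change was 1.57 (1.28 to 1.91), and with Clock alone it was 0.881 (0.783 to 0.991). Without Tef, which holds the most reads, it was 1.14 (1.02 to 1.28).

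**Figure D4:**
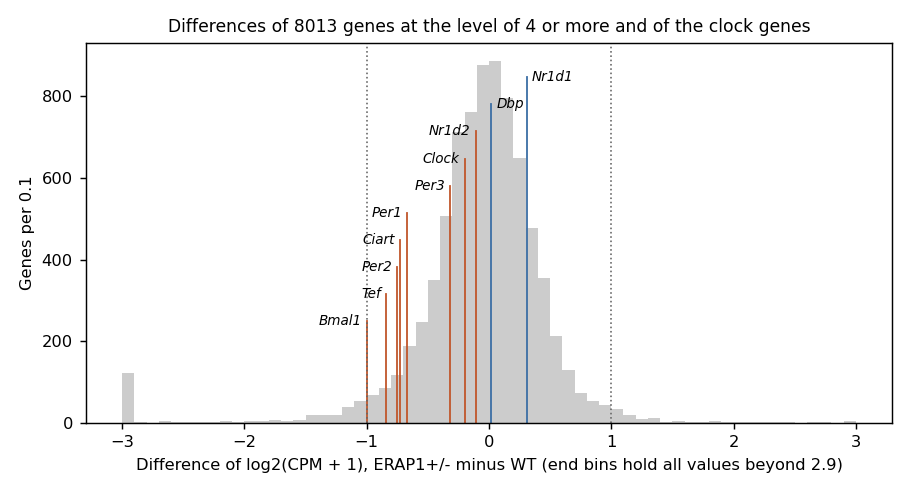
Distribution of the difference of log2(CPM + 1), ERAP1+/- minus WT, over the 8013 tested genes (grey bars, genes per 0.1), with a vertical line at the value of each clock gene; line heights only separate the names, and Per3 and Ciart are drawn although they are not among the 8013. The lines run from -1.0 for Bmal1, at the dotted 2-fold mark, to 0.31 for Nr1d1, beside a lower quartile of -0.28 and an upper quartile of 0.21 for all tested genes.

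Genes known for daily rhythms as outputs of the clock stood in both directions. Of 14 such genes, 13 had at least 10 reads, with 9 lower and 4 higher and a median log2(CPM + 1) difference of -0.21. Usp2, which encodes a ubiquitin protease with a strong rhythm in many tissues, had 564 reads in WT and 240 in ERAP1+/- and a ratio of 0.355 (0.304 to 0.414). Slc15a1, the intestinal peptide transporter PEPT1, had 744 and 354 reads and a ratio of 0.397 (0.349 to 0.452). These were the 2 of 11 tested genes past 2-fold, both lower, against 5.34% of all tested genes in either direction. Wee1, a cell cycle kinase with E-boxes known to answer to the clock, had 141 and 179 reads and a ratio of 1.06 (0.846 to 1.33). Slc9a3, the sodium and proton exchanger NHE3, had 7 and 60 reads, a ratio of 7.16 (3.27 to 18.6), but stayed under the level of 4.

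Stress hormones, cAMP and body temperature are known to act on Per genes, and 3 lists of genes that follow these signals were read beside them. Dusp1 is on both of the first lists. Of the 10 cAMP and immediate-early genes, all were lower with TMM and 9 with scaling by the total count, with a median log2(CPM + 1) difference of -0.77. Fos (956 and 522 reads), Fosb (249 and 72), Egr1 (772 and 402) and Atf3 (696 and 222) passed 2-fold, 4 of the 9 tested genes, against 5.34% of all tested genes in either direction. The ratios were 0.456 (0.409 to 0.508) for Fos, 0.435 (0.385 to 0.491) for Egr1 and 0.266 (0.228 to 0.310) for Atf3. Junb, at 0.499 (0.463 to 0.536), was at the edge of the limit and did not pass. Other members that did not pass included Jun at 0.684 (0.637 to 0.734), Ier2 at 0.819 (0.672 to 0.999), Nr4a1 at 0.722 (0.553 to 0.941) and Crem at 0.940 (0.600 to 1.48). A link of Per1 to this list was not tested. Of the 10 glucocorticoid-induced genes, 8 were lower and 2 higher with TMM (6 and 4 with scaling by the total count), and the median was -0.34. Errfi1 passed 2-fold as lower (ratio 0.369, 0.311 to 0.437) and Mt2, a metallothionein that also answers to zinc, as higher (ratio 2.41, 2.27 to 2.57). These were 2 of the 9 tested genes, against 5.34% of all tested genes in either direction. Fkbp5 and Tsc22d3, both induced by the glucocorticoid receptor, had ratios of 0.676 (0.570 to 0.801) and 0.672 (0.590 to 0.765). Some other members of this list were nearer 1, with Zbtb16 at 0.975 (0.827 to 1.15), Klf9 at 0.935 (0.889 to 0.984) and Ddit4 at 1.0 (0.914 to 1.1). Lcn2, with 39 and 13 reads and under the level of 4, was further from 1, at 0.278 (0.136 to 0.533). Of the 8 genes that follow body temperature, 5 were higher and 3 lower, and the median log2(CPM + 1) difference was 0.12. None of the 6 tested passed 2-fold, against 5.34% of all tested genes in either direction. Cirbp, an RNA-binding protein raised by cooling, was at 0.589 (0.511 to 0.678) and Hsph1, a heat shock protein, at 1.43 (1.19 to 1.73). Members of the same kinds stood on the other side of 1, with the cold-induced Rbm3 at 1.37 (0.993 to 1.92) and the heat shock gene Hspa1b at 0.594 (0.480 to 0.733).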

How the data were processed

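RNA of intestine pooled from 3 mice per genotype was sequenced as 1 library each with a 3′ end kit (QuantSeq FWD, single reads of 75 bp). The files deposited by the authors hold raw counts of reads for each gene symbol, not normalized. The methods name STAR with HTSeq-count and also Bowtie2 with RSEM on GRCm38, and the submitters' processing notes name Bowtie2, RSEM and GRCm38. Which one made the counts, their versions and the strand setting are not given in the sources used here.

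Scaling used the TMM factors 0.958 (WT) and 1.04 (ERAP1+/-) from edgeR 4.0.16, run under R 4.3.3, over all 40879 symbols, which sum to 8114826 and 8907515 reads. Levels are CPM and log2(CPM + 1). Differences are ERAP1+/- minus WT. A gene was called past 2-fold on that scale where it was at least 4 in either library. With 1 library per genotype no test can be run, and no p-value is given. Intervals at 95% are exact conditional binomial (ratios), exact Poisson (levels) or exact conditional for 2 by 2 counts (ratios within a library), computed with scipy 1.17.1, and cover counting error only. The calls and intervals were tested on data simulated with counting error only. Those data held no spread between mice, and their planted changes were larger than the differences of the clock genes. Alternatives were DESeq2 1.42.0 size factors, the total count, TMM without marker genes and mitochondrial and ribosomal RNA, a pseudocount of 0.1, thinning, and other filters and fold limits.

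The members and the lists were chosen with earlier results of these data known. Of each list, genes past 2-fold were named, or else the highest and lowest. Npas2, Rora, Nfil3, Bhlhe40, Hlf, Csnk1d, Csnk1e, Wee1, Slc9a3, Fkbp5, Tsc22d3, Zbtb16, Klf9, Ddit4, Jun, Junb, Ier2, Nr4a1, Crem, Rbm3, Hspa1b, Krt20, Car1, Muc2 and the ratios to Nr1d1 were added with their values in view. Timeless and Lcn2 were added in the same way. Arntl2 was not matched. Some genes of the lists count in their totals and are not reported here by name. Positions are from GENCODE M21, and promoters from RefSeq, both on GRCm38.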

Additional observations from a re-analysis of the deposited data

How the results depend on the processing

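No paired analysis was possible because only 1 library stands for either genotype. The count of clock genes past 2-fold was 0 with TMM, DESeq2 size factors and the total count, and 1 (Bmal1, lower) with TMM without marker genes and mitochondrial and ribosomal RNA, with a pseudocount of 0.1 and with thinning. A 1.5-fold limit gave 4, all lower. The count over all genes was 428, and 1434 with no filter, 1390 with at least 10 reads in 1 or both libraries, 160 with a log2 value of at least 6, 160 at 4-fold and 1247 at 1.5-fold. The change of the activated genes against Bmal1 and Clock was 1.01, and 1.57 with Bmal1 alone, 1.14 without Tef and 0.881 with Clock alone, the last chosen after seeing the data, which follows from the different genes summed. Over 5 alternatives of scaling, pseudocount and depth, all 50 recomputed differences of the 10 genes stayed within their counting interval, and 1 changed sign, that of Nr1d2 with the total count (-0.11 to 0.02). The medians of the 6 lists kept their sign under each alternative. Depth limits Ciart and Per3 most.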
